A study of Mus musculus with 8 samples.

Results

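The Mef2 family of transcription factors (Mef2a, Mef2b, Mef2c, and Mef2d) and the class IIa histone deacetylases (Hdac4, Hdac5, Hdac7, and Hdac9) were followed through mouse retinal development. The members are all genes of both families by symbol, a rule that uses no measured value although it was set with earlier results of these data known, and all 8 were found among the 21827 genes of the deposited tables. RNA was sequenced from retinas of slc:ICR mice free of the rd1 and rd8 mutations, with 1 library for each of 8 conditions. Whole retinas were taken at E15 and E18. At P2, P5, and P8, pooled retinas were sorted with an antibody against Cd73, a surface protein of rod and photoreceptor precursors, into a Cd73 positive fraction (Cd73PC) and a Cd73 negative fraction (Cd73NC) of interneurons, Müller glia, and other retinal cells. The 2 fractions of a stage came from the same retinas. No condition had a replicate library, so a difference at a single stage can be set only against the uncertainty of each estimate within its library. The difference between fractions was also tested over the 3 stages, with the 2 libraries of a stage as a pair.

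Mef2 proteins are MADS-box factors that bind an A/T-rich DNA element and drive genes of muscle, neuronal, endothelial, and lymphoid differentiation. Class IIa deacetylases have little enzyme activity of their own. They bind Mef2 through their N-terminal region and bring in the corepressor Ncor1 together with Hdac3, which silences Mef2 targets. Kinases that respond to calcium and other signals phosphorylate the class IIa proteins, 14-3-3 proteins then hold them in the cytoplasm, and Mef2 is released. In the retina, Mef2d is known to act with the homeodomain factor Crx in photoreceptors, and Hdac4 is known to affect the survival of retinal neurons. None of this protein traffic can be seen in RNA levels, which is what was measured here.

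Expression is given as FPKM, the number of fragments scaled to transcript length and to all mapped fragments of the library, with the lower and upper confidence bounds that Cufflinks gives for each estimate. Ratios were taken on FPKM + 1, and a difference of at least 1.5-fold was counted, which is the size the study used to choose genes. All 8 rod markers were past it toward Cd73PC at each stage, and their summed FPKM was 4088, 8883, and 14078 in Cd73PC against 79.6, 1076, and 979.9 in Cd73NC at P2, P5, and P8. Cd73NC thus held 1.95%, 12.1%, and 6.96% of the Cd73PC level of rod markers. Depth relative to the E18 library, read from the step worth 1 read in weakly expressed genes, was between 0.965 and 1.62. In bulk RNA, fewer cells of a type and less RNA per cell cannot be told apart.

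The 8 genes lie on 8 chromosomes (1-based positions, NCBI37/mm9). Mef2a is at chr7:74378717-74517744, Mef2b at chr8:72676677-72691387, Mef2c at chr13:83643033-83806684, and Mef2d at chr3:87946317-87973089. Hdac4 is at chr1:93829332-94044970, Hdac5 at chr11:102057061-102091486, and Hdac7 at chr15:97623095-97674933. The range of Hdac7 shares 29 bases with that of the neighbouring gene Slc48a1, and the other members share none with another gene of the tables. The deposited range of Hdac9, chr12:35056362-35213754, holds 46.25% of the exon bases annotated for the gene, which extends on the minus strand to base 34732451. It contains all coding exons of 2 annotated transcripts, with 9 and 11 coding exons, and 1 of the 15 coding exons of the transcript that reaches farther 3′. The ranges of Mef2d, Mef2a, Hdac4, and Hdac5 were also incomplete, with 50.8%, 57.9%, 63.1%, and 85.02% of the annotated exon bases, and those of Mef2b, Mef2c, and Hdac7 were complete. The Hdac9 values below therefore describe the 5′ part of the gene, which encodes the Mef2-binding region and includes the known short form without the catalytic domain. Ranks, ratios, and shares of members within a family set genes of complete and incomplete ranges side by side. How this bears on them was not tested.

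Promoter sequences of members are shown because Mef2 genes and class IIa deacetylases are known to be targets of Mef2 themselves. Each covers 250 bases before and 50 bases after a RefSeq start (GRCm38.p6, a different build from that of the expression tables), 5′ to 3′ on the strand of the gene. The 8 genes had 14 such entries. The MEF2 consensus, searched on both strands, was found in 2 of the 14, against 3.19% of 32851 mouse promoters. Both matches held CTAAAAATAG or its reverse complement CTATTTTTAG, a pair of strings picked after the match was seen and present in 0.110% of all promoters. Capitals mark the match. In Mef2a (chr7:67372809-67373108, minus strand) its first base lay 2 bases before the start, and in Hdac5 (chr11:102230123-102230422, minus strand) 20 bases before it. Mef2d (chr3:88142122-88142421, plus strand) and Mef2b (chr8:70152511-70152810, plus strand) are printed for comparison and held no match. They were the members past 1.5-fold higher in Cd73PC at all 3 stages. Mef2a was also higher in Cd73PC at all 3 stages, but past 1.5-fold at P2 only.
Mef2a: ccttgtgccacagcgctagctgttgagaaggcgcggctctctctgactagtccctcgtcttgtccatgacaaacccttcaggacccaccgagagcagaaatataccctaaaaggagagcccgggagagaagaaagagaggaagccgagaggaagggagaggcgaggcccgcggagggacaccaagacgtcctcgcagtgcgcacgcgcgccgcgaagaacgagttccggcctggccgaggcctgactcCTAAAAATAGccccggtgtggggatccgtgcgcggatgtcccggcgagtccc
Hdac5: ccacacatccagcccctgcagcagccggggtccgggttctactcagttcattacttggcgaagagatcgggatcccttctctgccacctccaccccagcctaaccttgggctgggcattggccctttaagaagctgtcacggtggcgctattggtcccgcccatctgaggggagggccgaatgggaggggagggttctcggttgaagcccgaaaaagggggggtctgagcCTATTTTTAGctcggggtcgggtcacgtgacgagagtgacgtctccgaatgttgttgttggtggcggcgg
Mef2d: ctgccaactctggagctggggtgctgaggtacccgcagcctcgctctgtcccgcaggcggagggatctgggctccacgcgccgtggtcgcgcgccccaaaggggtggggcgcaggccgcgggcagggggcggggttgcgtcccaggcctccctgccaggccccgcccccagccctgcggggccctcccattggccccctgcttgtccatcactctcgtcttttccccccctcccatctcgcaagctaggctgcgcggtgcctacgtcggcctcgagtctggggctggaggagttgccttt
Mef2b: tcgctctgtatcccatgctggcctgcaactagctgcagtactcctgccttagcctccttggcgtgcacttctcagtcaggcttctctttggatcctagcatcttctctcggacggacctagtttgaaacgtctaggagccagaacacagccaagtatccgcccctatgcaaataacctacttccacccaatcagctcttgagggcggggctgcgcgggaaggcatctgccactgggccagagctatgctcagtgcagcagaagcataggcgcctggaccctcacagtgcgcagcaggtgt
TAATCC, the core letters bound by Crx, or its reverse complement GGATTA, was found in 1 of the 14 entries and in 7.06% of all promoters. That entry is a start of Hdac9 at chr12:34528840-34529139 (minus strand). The other Hdac9 entry lies 5′ of it, at chr12:34917046-34917345. These starts lie farther apart than the 157393 bases that the deposited Hdac9 range spans. A match is a string of letters and not a measured binding site.

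Mef2d was the most abundant Mef2 gene in all 8 libraries, and its ratio between the fractions was highest at P2. Its FPKM was 15.9 (bounds 13.6 and 16.8) in E15 whole retina and 20.6 (17.8 and 21.9) in E18 whole retina. In Cd73NC it was 16.4, 53.3, and 64.1 at P2, P5, and P8, and in Cd73PC it was 70.4, 97.8, and 119. The 3 Cd73PC libraries were the 3 highest of the 8, and each was above the Cd73NC library of its stage without overlap of the bounds. The E15 and P2 Cd73NC levels, the 2 lowest, had overlapping bounds. In the order P2, P5, P8, Cd73PC exceeded Cd73NC 4.1-fold, 1.82-fold, and 1.84-fold on FPKM + 1, and the bounds allowed 3.47 to 4.58, 1.63 to 2.00, and 1.67 to 1.99. The ratio was smaller after P2 while both fractions had more Mef2d. From P2 to P8 the ratio was 3.74 in Cd73NC and 1.68 in Cd73PC, and in Cd73NC most of it lay between P2 and P5 (3.12). In 5 of the 6 sorted libraries, all but P2 Cd73NC, the deposited FPKM of Mef2d was above its own upper bound (119 against 115 in P8 Cd73PC), so its bounds are a rough guide only. Cd73NC held 23.3%, 54.5%, and 54.0% of the Cd73PC level of Mef2d at the 3 stages, beside 1.95%, 12.1%, and 6.96% for the rod markers. At P2, microglia (8 of 8), astrocyte (3 of 3), and pigment epithelium markers (4 of 5) were also past 1.5-fold toward Cd73PC. The part of rods and of these cells in the Mef2d values was not tested.

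**Figure D1:**
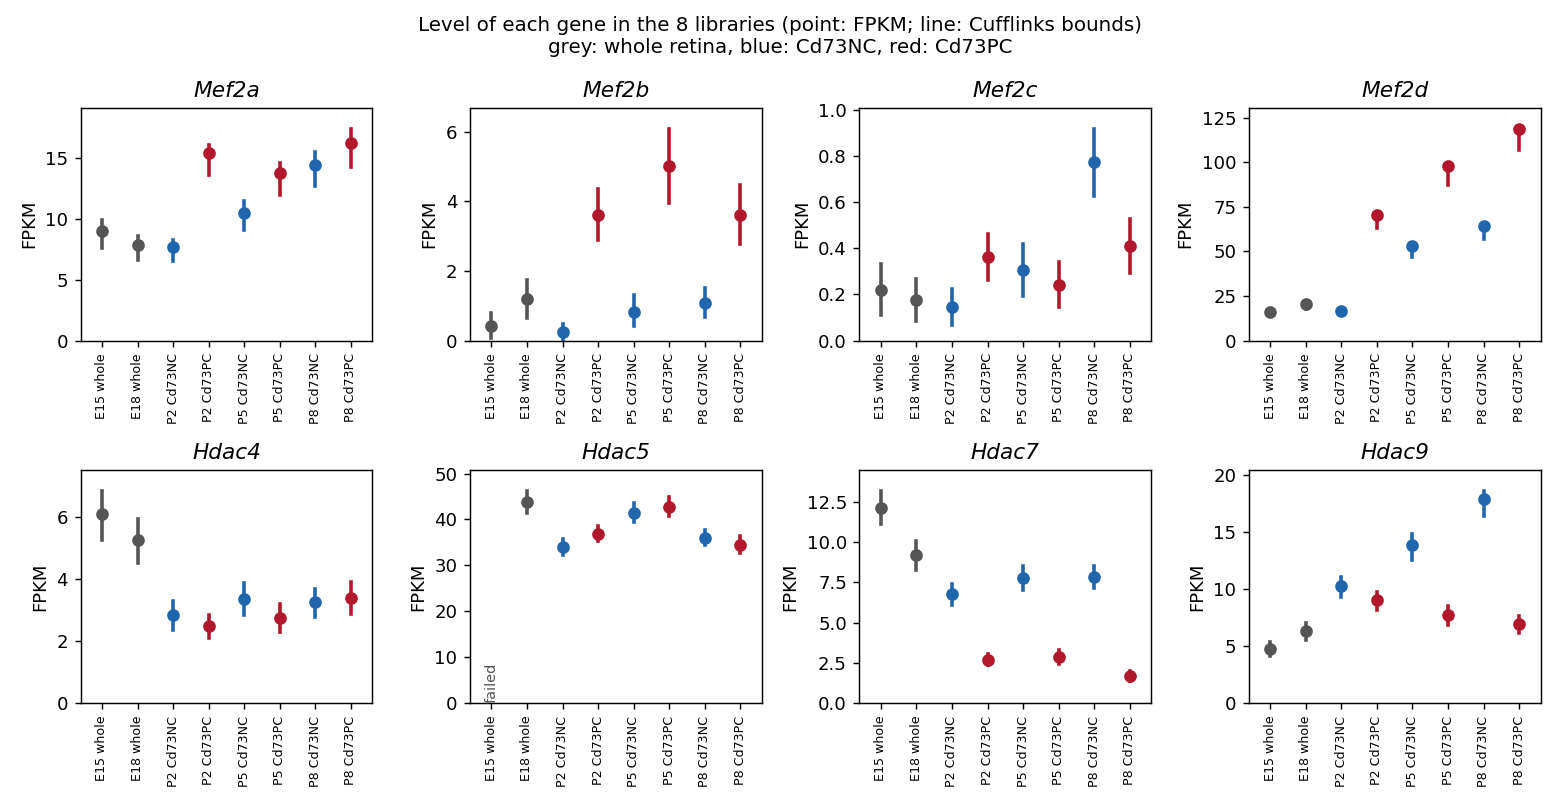
FPKM of the 8 genes in each of the 8 libraries on a linear axis that starts at 0, with a point for the estimate and a line for the Cufflinks bounds; grey marks whole retina, blue Cd73NC, and red Cd73PC. Mef2d reached 119 in P8 Cd73PC, Hdac7 was at 1.67 in the same library, Mef2c stayed below 1 throughout, and the E15 estimate of Hdac5 failed.

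Mef2b was weakly expressed in every library and highest in Cd73PC. Among genes at FPKM 1 or more, its Cd73PC levels were at percentiles 19.1, 27.5, and 20.5 at P2, P5, and P8. In Cd73PC its FPKM was 3.62 (2.89 and 4.35), 5.02 (3.96 and 6.09), and 3.62 (2.78 and 4.46), in the order of the stages. In Cd73NC it was 0.235, 0.831, and 1.09, and whole retina had 0.433 at E15 and 1.19 at E18. All 3 Cd73PC libraries were above the 5 others, with no overlap of bounds, while the bounds of the 3 Cd73PC libraries overlapped with each other. The ratios of Cd73PC to Cd73NC were 3.74, 3.29, and 2.21 on FPKM + 1. Without the pseudocount they were 15.4, 6.05, and 3.33, since FPKM + 1 understates differences of weakly expressed genes. The P2 Cd73NC estimate had a lower bound of 0.

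Mef2a, the second most abundant member of its family, was moderately expressed everywhere. Whole retina had an FPKM of 8.97 at E15 and 7.87 at E18. In Cd73NC the level was 7.66 (6.54 and 8.28), 10.5 (9.03 and 11.5), and 14.4 (12.7 and 15.5) at P2, P5, and P8, and in Cd73PC it was 15.4 (13.6 and 16.1), 13.7 (11.9 and 14.6), and 16.2 (14.3 and 17.4). The fractions differed past 1.5-fold at P2 only (ratio 1.89), and the ratio was 1.28 at P5 and 1.12 at P8, where the bounds overlapped. P2 was also the only stage at which microglia markers (8 of 8) and astrocyte markers (3 of 3) were past 1.5-fold toward Cd73PC. Pigment epithelium markers were past it toward Cd73PC at all 3 stages (4, 2, and 4 of 5). The part of these cells in the Mef2a values was not tested. In Cd73NC the P8 level was 1.78 times that at P2 on FPKM + 1, and in Cd73PC the corresponding value was 1.05 with overlapping bounds.

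Mef2c, a regulator of heart, neuronal, and immune cell development, did not reach an FPKM of 1 in any library. Its FPKM was 0.220 at E15, 0.176 at E18, 0.145, 0.305, and 0.772 in Cd73NC at P2, P5, and P8, and 0.362, 0.242, and 0.411 in Cd73PC. P8 Cd73NC (0.628 and 0.917) was the highest, with bounds clear of all others. The ratios of Cd73PC to Cd73NC, 1.19, 0.952, and 0.796, stayed within 1.5-fold on FPKM + 1. Without the pseudocount they were 2.50, 0.793, and 0.532, which is past 1.5-fold at P2 and P8 in opposite directions. The level of Mef2c moved with that of microglia markers, whose 8 genes are C1qa, C1qb, C1qc, Cx3cr1, Csf1r, Aif1, P2ry12, and Tyrobp. Their summed FPKM was 10.4 in P2 Cd73NC, the library with the lowest Mef2c, and 206.5 in P8 Cd73NC, the library with the highest. At P2 all 8 markers were past 1.5-fold toward Cd73PC (59.8 against 10.4 in sum), the only stage at which Mef2c was higher in Cd73PC on deposited FPKM, and at P8 the sums were 157.2 in Cd73PC and 206.5 in Cd73NC. Over the 8 libraries, which share stages and fractions, Pearson's r was 0.935 and Spearman's rho 0.976, and r was 0.878 without the 2 libraries at P8, which lie farthest from the median sum. Of 14 marker lists, microglia had the highest of both coefficients, but pigment epithelium (rho 0.952) and erythroid (r 0.927) were close. With the 2 farthest libraries of each list left out, r was higher for astrocyte markers (0.942) than for microglia, 0.856 for cone, 0.593 for pigment epithelium, and 0.265 for erythroid markers. The part of these cells in the Mef2c values was not tested.

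**Figure D2:**
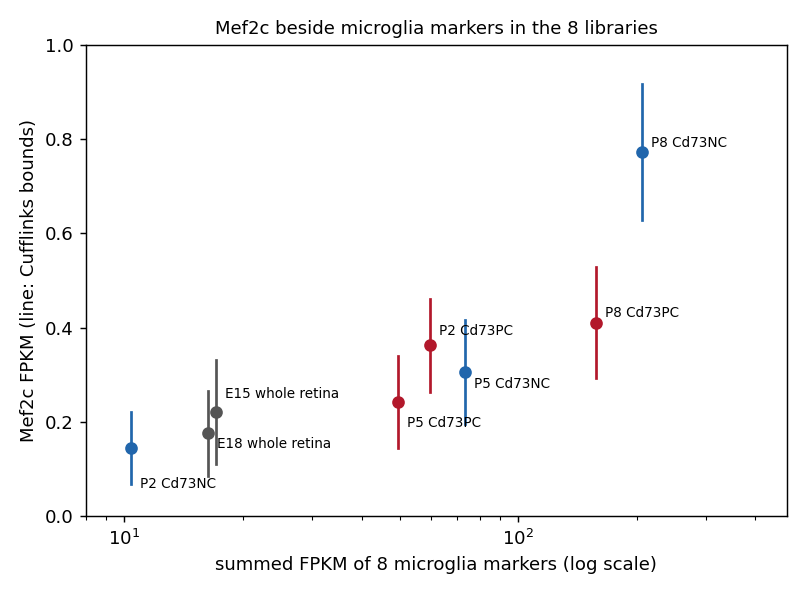
Mef2c FPKM (vertical axis, lines for the Cufflinks bounds) against the summed FPKM of 8 microglia markers (horizontal axis, log scale), 1 point per library, grey for whole retina, blue for Cd73NC, and red for Cd73PC. P2 Cd73NC is lowest on both axes (0.145 and 10.4) and P8 Cd73NC highest on both (0.772 and 206.5).

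Within the family, Mef2d held the largest share of the summed FPKM in each of the 8 libraries. Its share was 62.3% at E15, 69.1% at E18, and 67.1% in P2 Cd73NC. In Cd73NC at P5 and P8 it was 82.1% and 79.8%. In Cd73PC it was 78.4%, 83.7%, and 85.4% at P2, P5, and P8, where Mef2a held 17.2%, 11.8%, and 11.7%. The FPKM ratio of Mef2d to Mef2a within a library was 1.78 at E15 and 7.32 in P8 Cd73PC. The summed FPKM of the 4 genes was 24.5 in P2 Cd73NC and 139.1 in P8 Cd73PC, the lowest and highest of the 8 libraries.

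Among the class IIa deacetylases, Hdac5 was the most abundant and the most even. Its FPKM was 43.8 (41.5 and 46.2) in E18 whole retina. In Cd73NC it was 33.9 (32.3 and 35.8), 41.4 (39.4 and 43.6), and 35.95 (34.4 and 37.8) at P2, P5, and P8, and in Cd73PC it was 36.8 (35.2 and 38.6), 42.8 (40.7 and 45.0), and 34.5 (32.7 and 36.4). The bounds of the fractions overlapped at every stage, with ratios of 1.08, 1.03, and 0.961, and the highest library was only 1.29 times the lowest in FPKM. The E15 estimate failed and is listed at 0, so it was taken as missing, and the comparison of E18 with E15 has no value for Hdac5.

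Hdac7, known for its roles in endothelial cells and thymocytes, was lower in Cd73PC at all 3 stages. Whole retina had an FPKM of 12.1 (11.1 and 13.2) at E15 and 9.20 (8.30 and 10.1) at E18. Cd73NC had 6.76 (6.08 and 7.43), 7.77 (7.003 and 8.54), and 7.85 (7.17 and 8.52) at P2, P5, and P8, and Cd73PC had 2.70 (2.34 and 3.06), 2.88 (2.44 and 3.33), and 1.67 (1.34 and 2.00). The 3 Cd73PC libraries were the lowest of the 8 and did not overlap with the Cd73NC libraries, whose own bounds overlapped with each other. The ratios of Cd73PC to Cd73NC were 0.477 (bounds 0.397 to 0.574), 0.442 (0.360 to 0.540), and 0.302 (0.246 to 0.367).

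Markers of other cells were set beside this difference. All 6 progenitor markers were past 1.5-fold toward Cd73NC at each stage, and their summed FPKM was 1077 at E15, 734 at E18, 581.6, 125.1, and 13.7 in Cd73NC, and 159.8, 35.3, and 3.07 in Cd73PC. From P2 to P8 the progenitor sum in Cd73NC went from 581.6 to 13.7, and Hdac7 in Cd73NC went from 6.76 to 7.85. The sum of the 8 endothelial markers was 169.7, 158.8, and 89.1 in Cd73NC and 35.7, 40.9, and 16.0 in Cd73PC, of which Kdr held 139.4, 142.8, and 67.5 in Cd73NC. Of these 8 markers, 2, 2, and 3 were past 1.5-fold lower in Cd73PC at P2, P5, and P8, and 1 was higher at P5. Their median log2 ratios were -0.14, 0.405, and -0.37. Müller glia markers were lower in Cd73PC at each stage (4, 5, and 6 of 6), with sums of 1090, 1511, and 1224 in Cd73NC and 478.2, 402.1, and 319.4 in Cd73PC. Of 8 bipolar markers, 2, 5, and 8 were past 1.5-fold lower at the 3 stages, and 3 were higher at P2. Of 5 amacrine markers, 4, 3, and 3 were lower, and 1 was higher at each stage. Of 5 pericyte markers, 1, 1, and 5 were lower. Pecam1, 1 of the 8 endothelial markers, was at 0.223, 0.813, and 0.562 in Cd73NC and 0.148, 1.46, and 0.548 in Cd73PC. Cldn5, another of them, was at 29.1, 9.49, and 3.73 in Cd73NC and 5.17, 8.94, and 2.19 in Cd73PC. Esam was at 0.190, 1.64, and 13.0 in Cd73NC and 0.298, 2.80, and 2.18 in Cd73PC. The parts of these cells in the Hdac7 values were not tested.

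Hdac9, which in muscle is both a partner and a target of Mef2, went apart in the fractions with age. Whole retina had an FPKM of 4.74 (4.09 and 5.34) at E15 and 6.31 (5.53 and 7.03) at E18. In Cd73NC it was 10.3 (9.25 and 11.04), 13.8 (12.5 and 14.8), and 17.9 (16.4 and 18.6) at P2, P5, and P8, and in Cd73PC it was 9.04 (8.17 and 9.76), 7.69 (6.83 and 8.49), and 6.93 (6.15 and 7.66). Each Cd73NC library was higher than the stage before with no overlap of bounds, while neighbouring Cd73PC stages overlapped. The ratios of Cd73PC to Cd73NC were 0.890 (0.762 to 1.05), 0.586 (0.495 to 0.701), and 0.419 (0.365 to 0.497), past 1.5-fold at P5 and P8. After quantile normalization over the 8 libraries the log2 ratio of Hdac9 at P5 was -0.53 in place of -0.77, within 1.5-fold. Bipolar markers followed the same order in Cd73NC, with a sum over 8 genes of 193.5, 450.9, and 2540 against 79.0, 97.0, and 328.2 in Cd73PC. Pericyte, cone, microglia, erythroid, and pigment epithelium sums also rose at each stage in Cd73NC. Over the 8 libraries, the bipolar sum had a Pearson's r of 0.80 and a Spearman's rho of 0.31 with Hdac9. Without P5 and P8 Cd73NC, its r was -0.49. Pericyte markers had a higher r (0.856), with a rho of 0.357 and an r of -0.090 without the same libraries. Müller glia markers had the highest rho of the marker lists (0.619), with an r of 0.764, and of 0.390 without the same libraries. With the 2 farthest libraries of each list left out, r was highest for astrocyte markers (0.844). Microglia (0.631) and pigment epithelium markers (0.608) came next. The Müller glia sums were those given for Hdac7. The part of these cells in the Hdac9 values was not tested.

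Hdac4 was highest in whole retina. Its FPKM was 6.09 (5.26 and 6.82) at E15 and 5.24 (4.50 and 5.93) at E18. The 6 sorted libraries lay between 2.47 (P2 Cd73PC) and 3.39 (P8 Cd73PC), and the bounds of the fractions overlapped at each stage, with ratios of 0.907, 0.862, and 1.04. Both P2 fractions were past 1.5-fold below E18, with ratios of 0.555 (0.444 to 0.700) for Cd73PC and 0.613 (0.485 to 0.777) for Cd73NC. Both ratios share the E18 library. Among all genes, 18.3% were past 1.5-fold lower in P2 Cd73PC than in E18 and 8.2% in P2 Cd73NC, and among genes with FPKM of at least 1 in either library 30.2% and 13.3%. Ganglion cell markers (7 genes) went from a sum of 546.2 at E18 to 14.9 in P2 Cd73NC and 10.1 in P2 Cd73PC, and horizontal cell markers (3 genes) from 6.78 to 1.29 and 2.18. The part of these cells in the Hdac4 values was not tested, and age and sorting cannot be told apart in this comparison.

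Hdac5 held 55.4% (P8 Cd73NC) to 76.3% (P5 Cd73PC) of the summed FPKM of the 4 class IIa genes in the 7 libraries with a value. In P8 Cd73NC the share of Hdac9 was 27.6%, its highest, and that of Hdac7 was 12.1%. In P8 Cd73PC these shares were 14.9% and 3.59%. The sum of the 4 genes was 53.8, 66.4, and 65.0 in Cd73NC and 51.0, 56.1, and 46.5 in Cd73PC, a narrower range than that of the Mef2 genes.

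**Figure D3:**
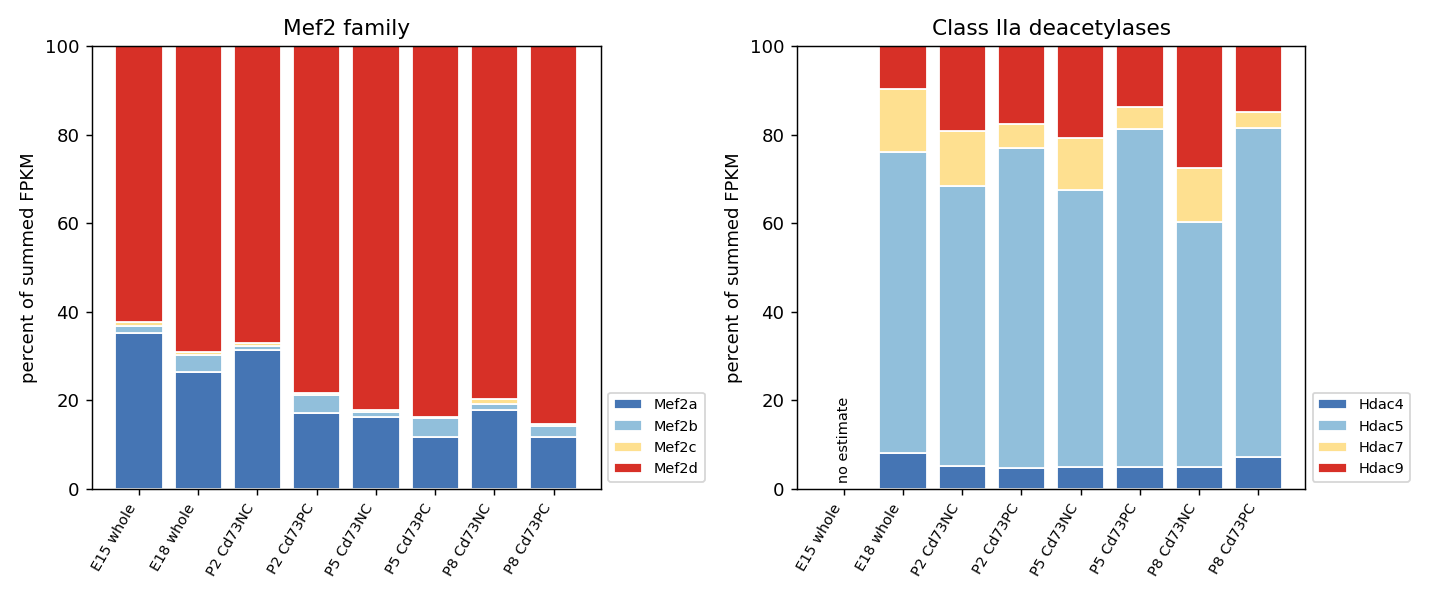
Share of each member in the summed FPKM of its family, in percent, as stacked bars for the 8 libraries, with the Mef2 genes on the left and the class IIa deacetylases on the right; the E15 bar on the right is left out because the Hdac5 estimate failed. Mef2d takes 62.3% at E15 and 85.4% in P8 Cd73PC, and Hdac9 takes 27.6% in P8 Cd73NC.

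Counted over the 8 members, 3 were past 1.5-fold higher in Cd73PC at P2 and 1 lower. At each of P5 and P8, 2 were higher and 2 lower. Among all genes, 8.56%, 7.02%, and 7.54% were past it higher and 14.4%, 15.5%, and 18.6% lower at P2, P5, and P8. Among genes with FPKM of at least 1 in either fraction, 14.5%, 12.3%, and 13% were higher and 25%, 27%, and 31.3% lower. With 8 members these counts are too small to set the families apart from other genes. The median log2 ratio of the members was 0.18, -0.01, and -0.0032, while expressed genes had medians of -0.14, -0.18, and -0.23. Mef2b and Mef2d were past 1.5-fold higher at all 3 stages, as were 3.51% of all genes and 5.85% of those with FPKM of at least 1 in a sorted library. Hdac7 was past 1.5-fold lower at all 3, as were 7.83% and 13.1%. Among expressed genes, the Mef2b ratio was at percentiles 97.3, 98.3, and 94.0, that of Mef2d at 97.7, 92.7, and 91.5, and that of Hdac7 at 11.2, 10.96, and 7.89.

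Over the 3 stages, with the fractions of a stage as a pair, the log2 ratio of Cd73PC to Cd73NC was 1.59 ± 0.39 for Mef2b, 1.26 ± 0.67 for Mef2d, and 0.48 ± 0.39 for Mef2a (mean ± SD over 3 stages). It was -1.32 ± 0.35 for Hdac7 and -0.73 ± 0.54 for Hdac9, and the means of Mef2c (-0.050 ± 0.29), Hdac4 (-0.10 ± 0.14), and Hdac5 (0.034 ± 0.086) were smaller than their spread. In a limma fit over 18071 genes with stage as a block, Mef2b was called higher (adjusted p = 0.0372) and Hdac7 lower (adjusted p = 0.0448), against 3.89% of genes called higher and 8.12% lower at an adjusted p under 0.05. Mef2d (limma adjusted p = 0.0741), Hdac9 (0.146), and Mef2a (0.185) did not pass. Neither call held without the block, where the limma adjusted p was 0.0516 for Mef2b and 0.053 for Hdac7. With any 1 stage left out, limma called 0 of 18071 genes, so losing both calls there is not particular to these members. Restricted to genes with FPKM of at least 1 in a sorted library, limma also called Mef2d (adjusted p = 0.0226). The exact sign-flip permutation test of 3 pairs cannot go below 0.25, which is its value for Mef2a, Mef2b, Mef2d, Hdac7, and Hdac9. The pairs are different ages and not replicates of an age, so the spread here includes change with development.

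**Figure D4:**
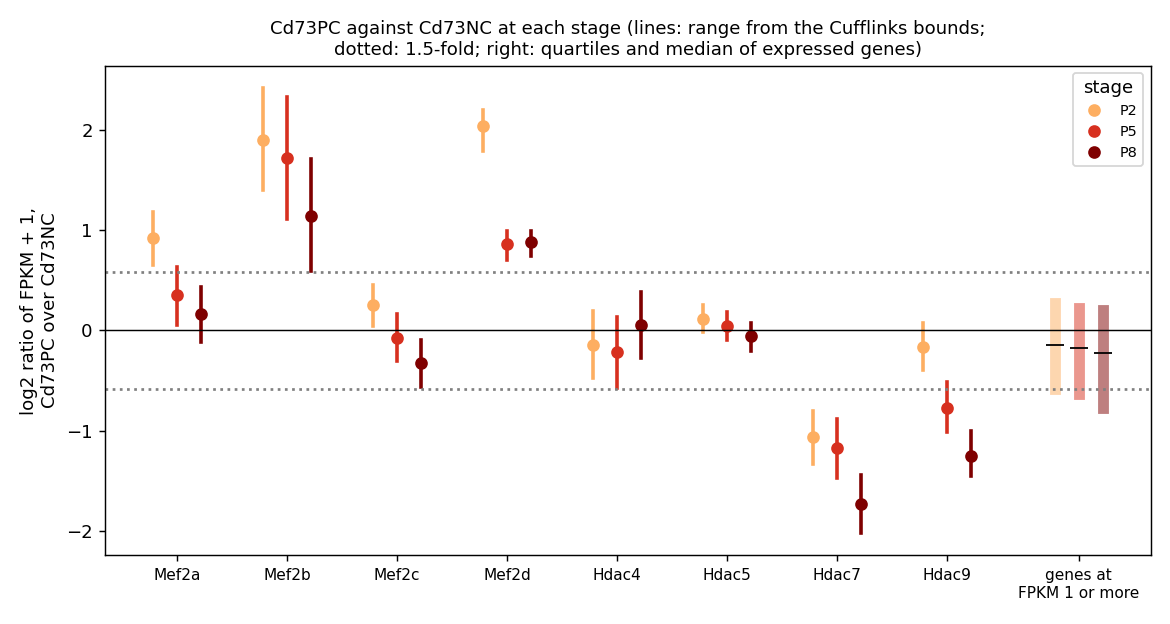
Log2 ratio of FPKM + 1 in Cd73PC over Cd73NC for the 8 genes at P2, P5, and P8 (points), with the range that the Cufflinks bounds allow (lines), dotted lines at 1.5-fold, and at the right the median and quartiles of expressed genes at each stage. Mef2d goes from 2.04 to 0.86 and 0.88, Hdac9 goes from -0.17 to -0.77 and -1.25, and Hdac4 and Hdac5 stay near 0.

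Over time, more members were past 1.5-fold in Cd73NC than in Cd73PC, a difference that was not tested. From P2 to P8, 5 of 8 were past 1.5-fold higher in Cd73NC (Mef2a, Mef2b, Mef2c, Mef2d, and Hdac9, with ratios of 1.78, 1.69, 1.55, 3.74, and 1.68) and 0 lower, against 13.5% of all genes higher and 14.3% lower (21.6% and 24% of genes with FPKM of at least 1 in either library, called expressed here). In Cd73PC only Mef2d (1.68) was higher and 0 were lower, against 6.4% and 14.7% of all genes (11.2% and 25.7% of expressed genes). All 8 rod markers were also past 1.5-fold higher in Cd73NC at P8 than at P2, with the sums given above, and so were all 8 bipolar and all 8 microglia markers. The part of these cells was not tested. Between E15 and E18, 1 of the 7 members with a value was past 1.5-fold (Mef2b, 1.53, with overlapping bounds), against 4.61% of all genes higher and 2.09% lower (7.6% and 3.47% of expressed genes).

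The pathway around Mef2 and class IIa proteins was followed in 6 lists with 75 genes, one of which is Hdac9 itself. At all 3 stages, 3 of the 75 were past 1.5-fold higher in Cd73PC (Camkk1, Ppp3cc, and Ppargc1a) and 6 lower (Hdac8, Cbx5, Camk4, Prkd3, Ywhag, and Ywhah), against 3.51% and 7.83% of all genes. Among genes with FPKM of at least 1 in a sorted library, the shares were 5.85% and 13.1%. The list counts were therefore near or below the background, and the genes are described one by one. Of expressed genes, 14.5%, 12.3%, and 13% were higher and 25%, 27%, and 31.3% lower at P2, P5, and P8. The stage counts of each list below stand beside these shares.

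Kinases of the pathway were found on both sides. Of 27, 5 were higher and 4 lower at P2, 6 higher and 5 lower at P5, and 4 higher and 6 lower at P8. Camkk1, an upstream activator of calcium/calmodulin-dependent kinases, had an FPKM of 23.1, 29.3, and 27.1 in Cd73PC and 4.28, 7.13, and 11.9 in Cd73NC. Camk4, one of the kinases it activates and a kinase of class IIa deacetylases, had the opposite distribution, with 0.648, 1.46, and 1.99 in Cd73PC and 1.98, 11.2, and 16.7 in Cd73NC, where the bipolar marker sums were those given for Hdac9. The part of bipolar cells in the Camk4 values was not tested. Prkd3, a protein kinase D, was at 15.6, 9.45, and 8.81 in Cd73PC and 31.4, 23.3, and 29.4 in Cd73NC.

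Of the 8 phosphatase genes, 2 were higher and 0 lower at P2, 1 was higher and 1 lower at P5, and 1 was higher and 3 lower at P8. Ppp3cc, a catalytic subunit of calcineurin, which dephosphorylates class IIa deacetylases and Mef2, was at 28.2, 40.4, and 59.5 in Cd73PC and 6.08, 11.8, and 11.6 in Cd73NC. Its mean ratio over the stages was 4.01. The other catalytic subunit genes, Ppp3ca (58.6 and 117.3 at P8 in Cd73PC and Cd73NC) and Ppp3cb (45.2 and 50.6), were more abundant in sum and did not share this distribution. Of the 7 14-3-3 genes, 0 were higher and 3, 2, and 3 were lower at P2, P5, and P8. Ywhag was at 54.6, 47.6, and 46.3 in Cd73PC against 93.0, 89.2, and 137.8 in Cd73NC, and Ywhah at 96.1, 57.4, and 41.4 against 150.6, 89.7, and 83.4.

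The other deacetylases and the cofactors were mostly within 1.5-fold. Of the 7 genes of classes I, IIb, and IV, 0 were higher and 1, 2, and 3 were lower at the 3 stages. Hdac8 was at 6.30, 4.02, and 3.40 in Cd73PC and 9.96, 7.99, and 7.73 in Cd73NC. Hdac3, the enzyme that acts in the class IIa complexes, had ratios within 1.5-fold at each stage and an FPKM between 28.3 (P8 Cd73PC) and 50.9 (E18). Of 12 corepressors and cofactors, 2 were higher and 1 lower at P2, 0 higher and 1 lower at P5, and 2 higher and 2 lower at P8. Ncor1 had log2 ratios of 0.14, -0.22, and -0.02. Cbx5, heterochromatin protein 1 alpha and a partner of class IIa proteins, was at 14.7, 7.37, and 5.62 in Cd73PC and 41.7, 20.1, and 20.8 in Cd73NC, with 65.7 at E15.

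Genes known as Mef2 targets from muscle, endothelium, lymphocytes, or neurons did not go with Mef2d as a list. Of 14 found, 2, 3, and 1 were higher and 3, 2, and 4 were lower at P2, P5, and P8, with median log2 ratios of -0.11, -0.03, and -0.14. Ppargc1a, a coactivator of mitochondrial genes, was at 3.61, 5.87, and 6.73 in Cd73PC and 0.751, 2.00, and 0.996 in Cd73NC. The list was drawn from other tissues, and only 8 or 9 of its genes reached FPKM 1 in either fraction at a stage.

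**Figure D5:**
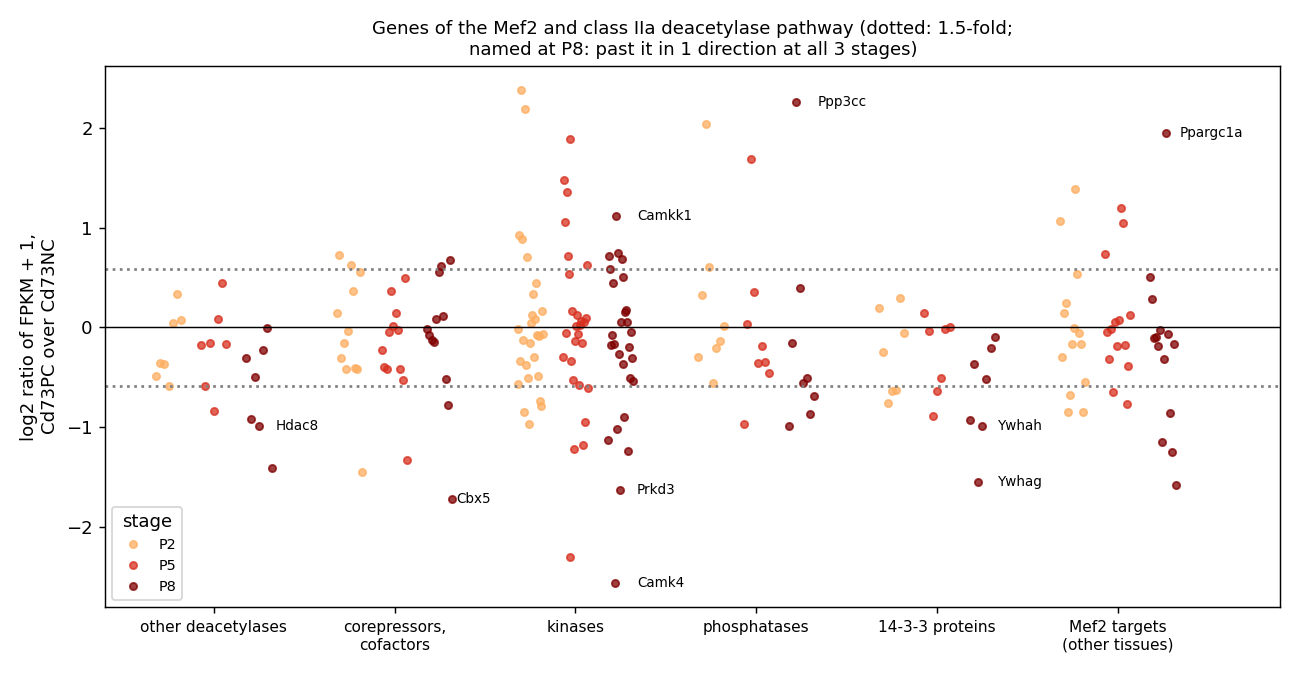
Log2 ratio of FPKM + 1 in Cd73PC over Cd73NC at P2, P5, and P8 for the genes of 6 pathway lists, 1 point per gene and stage, with dotted lines at 1.5-fold and names at the P8 values of genes past it in the same direction at all 3 stages. Ppp3cc lies highest among the named genes at P8 and Camk4 lowest at -2.57.

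For each member with FPKM of at least 1 in a library, the genes of most similar pattern were sought among 10859 genes by the root mean square difference of log2(FPKM + 1) over the 8 libraries after removal of each gene's mean. The nearest to Mef2d were 6430571L13Rik (0.094), Grina (0.16), and Zbtb4 (0.16), set against 1.06 for the spread of Mef2d itself. For Mef2b (spread 0.80) they were Kifc3 (0.15), Rgs22 (0.18), and Ppapdc2 (0.19), and for Mef2a (0.38) they were 3110002H16Rik (0.076), Secisbp2l (0.077), and Atp2c1 (0.11). Hdac7 (0.77) was nearest to Ankrd13b (0.12), Ttc28 (0.14), and 6330407J23Rik (0.15). Hdac9 (0.52) was nearest to 2 protocadherin genes, Pcdhgb6 (0.14) and Pcdhb16 (0.16), and to Cadm3 (0.15), all of which encode cell adhesion molecules. Hdac4 (0.34) was nearest to Kri1 (0.095), Raph1 (0.11), and Pigl (0.11). Hdac5, over 7 libraries and 10729 genes, was nearest to Brd3 (0.070), Dctn2 (0.079), and Gsk3a (0.080), with a spread of its own of only 0.14. No nearest gene of a member was another member.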

How the data were processed

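RNA from 8 samples (1 library each) was sequenced by the study with the Illumina mRNA kit, which does not mark strand, as single-end reads of 36 bases. The authors aligned reads to mm9 with TopHat2 2.0.8b and estimated expression with Cufflinks 2.1.1 (versions from the submitters' processing notes), and deposited FPKM per gene with confidence bounds and a status. Depth per library is known only relative to E18, so no counting interval was given. Here, 788 small RNA rows were left out, rows of 235 symbols were summed, and failed estimates (20 genes) were taken as missing, which left 21827 genes. Ratios used FPKM + 1 and a 1.5-fold rule. The range of a ratio was the lower bound of one library over the upper bound of the other, and the reverse, each plus 1. Python 3.11.15, numpy 2.4.6, and pandas 2.3.3 were used, and the scripts were tested on simulated data.

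All 8 members were named, with pathway genes past 1.5-fold in the same direction at 3 stages (at most 6 per list and direction) and the 3 nearest genes of each member among those at FPKM 5 or more in a library. Other genes were named after their values were seen: Ppp3ca, Ppp3cb, Hdac3, Ncor1, and the markers. Members and lists were chosen with earlier results of these data known. Tfap2a, Tfap2b, and Septin4 were among the listed genes not matched by symbol. The fractions were also compared over the 3 stages with limma 3.58.1 (R 4.3.3) on log2(FPKM + 1) of genes above 0 in a sorted library, with stage as a block (2 residual degrees of freedom), an intensity trend, and Benjamini-Hochberg adjustment. This fit and its alternatives were added after the data were seen. The methods of the study give the pairing, since both fractions of a stage were sorted from the same retinas. The alternatives were pseudocounts of 0.1 and 0, a filter at FPKM 1, upper-quartile, quantile, and median-of-ratios scaling, a 2-fold rule, and non-overlapping bounds. Promoter sequences are from RefSeq (GRCm38.p6), and all 8 members matched by symbol. Exons were taken from the GENCODE annotation of NCBIM37.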

Additional observations from a re-analysis of the deposited data

Results flagged for a closer look

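The difference between the fractions turned its sign between stages in 3 members, which drew a closer look. Mef2c had a log2 ratio of Cd73PC to Cd73NC of 0.25 at P2 and -0.33 at P8, with bounds that did not overlap at either stage, at FPKM below 1 throughout. Microglia markers turned in the same way, with a median log2 ratio of 1.796 at P2 and -0.43 at P8, although only 1 of the 8 was past 1.5-fold lower at P8. Astrocyte markers turned too, with 3 of 3 past 1.5-fold higher at P2 (median 2.11) and 3 of 3 lower at P8 (median -0.95). The part of these cells was not tested. Hdac4 had -0.21 at P5 and 0.051 at P8, and Hdac5 had 0.11 at P2 and -0.057 at P8, all with overlapping bounds. The sign of Mef2c at P8 was kept under upper-quartile (-0.30) and median-of-ratios scaling (-0.28) and with a pseudocount of 0.1 (-0.77) or none (-0.91). After quantile normalization Mef2c at P8 was at 0.042, Hdac4 at P5 at 0.21, and Hdac5 at P8 at 0.042, so that none of the 3 turned. Hdac5 at P8 was also above 0 under upper-quartile (0.044) and median-of-ratios scaling (0.11). There was 1 library per condition, so none of these differences between stages was tested, and all lie within 1.5-fold on FPKM + 1.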

How the results depend on the processing

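With 1 library per condition, no replicate of a condition could be left out. The paired limma fit over the 3 stages called 2 members (Mef2b and Hdac7), against 0 without the replicate block, 1 (Mef2b) after quantile normalization, and 0 with any 1 of the 3 pairs left out, where limma called 0 of 18071 genes (3283 to 5307 at an unadjusted p under 0.05). Over all genes it called 2171, against 361 without the block, 3667 of 13056 at FPKM of at least 1, and 3078 with a pseudocount of 0.1. Of 48 recomputed counts 36 were within 1.5-fold of the reported one, of 120 log2 ratios 113 moved by less than 1.5-fold, of 120 family shares on the bounds 10 (of Mef2b and Mef2c) moved past 1.5-fold, and 0 differences past 1.5-fold reversed. A 2-fold rule left 2 members at P5 (Mef2b and Hdac7, in place of 4), 0 between E15 and E18, 0 between P2 and P8 in Cd73PC, and 1 in Cd73NC (Mef2d). Quantile normalization left 0 between E15 and E18 and 3 between P2 and P8 in Cd73NC, and gave 2 in Cd73PC (Mef2d and Hdac4). Median-of-ratios scaling also left 0 between E15 and E18. A pseudocount of 0.1 or none gave 2 in Cd73PC between P2 and P8 (Mef2d, and Hdac7 lower). With non-overlapping bounds in place of the fold rule there were 3 between E15 and E18 (Mef2d and Hdac9 higher, Hdac7 lower). Between P2 and P8 in Cd73PC there were 4 (Mef2d and Hdac4 higher, Hdac7 and Hdac9 lower). Apart from the limma fits, no share of all genes was computed with the 2-fold rule, the scalings, other pseudocounts, or non-overlapping bounds. The counts of members under these settings therefore have no background beside them. Whether the share of all genes changed alike cannot be said. The Mef2b share of its family, 1.69% at E15, was 0.290% on lower and 2.88% on upper bounds, and at E18, 3.99%, it was 2.61% on lower bounds. Without a pseudocount the log2 ratios of Mef2b were 3.94, 2.60, and 1.74 at P2, P5, and P8, and that of Mef2c at P2 was 1.32. Scaling moved the median of expressed genes at P8 from -0.23 to 0.03 (quantile normalization). The causes were not tested. The absolute depth is unknown.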
